A study of Mus musculus with 3 samples.

Results

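Gap junction genes of brain vessels were followed in RNA-seq libraries from 3-month-old mice: 9 genes, of which 7 encode connexins (Gja1, Gja4, Gja5, Gjb2, Gjb6, Gjc1, Gjc3) and the remaining pair pannexins (Panx1, Panx2). The members are a list of gene names, and 8 of the 9 had a transcript that could be matched to the annotation, out of 29787 genes with one. Panx2 is not analysed here. All 8 passed the filter on low values, a level of at least 1 in some library, which kept 16604 genes; a gene's level is its CPM, the counts of its transcripts summed and scaled to library size. The first of the 3 libraries came from hGFAP-Cre/Cx43fl/fl mice on a C57BL6-BALB/c background, labelled Cx43 -/- and called Cx43-deleted here. In them Cre, driven by the human GFAP promoter, recombines floxed Gja1. The others came from wild-type (WT) C57BL6-BALB/c mice, which share the mixed background, and from WT C57BL6 mice, which differ from the first in background as well. The labels name neither Cre nor a floxed allele for the WT mice. Each group had a single library, so nothing could be tested and every difference is one between libraries.

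A connexin spans the membrane and joins others of its kind into a hemichannel, and hemichannels of neighbouring cells dock into a gap junction that passes ions and small molecules. Pannexins form large-pore channels that release ATP and do not usually dock. In brain vessels each cell layer has its own set: Cx43 and Cx30 (Gja1 and Gjb6) in astrocytes and their endfeet on the vessel wall, Cx37 and Cx40 (Gja4 and Gja5) in arterial endothelium, Cx45 (Gjc1) in mural cells. The human GFAP promoter is also active in the neural progenitors that give rise to neurons and oligodendrocytes. Fibroblasts, smooth muscle and endothelial cells, which lie outside that lineage, can express Gja1 too.

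The library totals were 54975610 reads for Cx43-deleted, 21170766 for the WT C57BL6-BALB/c library and 24830975 for WT C57BL6. Levels between genes are given per kilobase, as RPKM of the most abundant transcript (its reads divided by its length and the library size). Folds between libraries come from the reads on that transcript, with 95% intervals that cover counting error only. Log2 ratios use counts summed over a gene's transcripts, with a pseudocount of 0.5. Scaling was by TMM, which assumes that most genes are alike between libraries. Scaling on 12 endothelial markers instead would add about 0.18 to log2 ratios of Cx43-deleted to WT C57BL6-BALB/c. It would add about 0.91 to those of Cx43-deleted to WT C57BL6, and about 0.74 to those between the WT libraries. The pseudocount changes these shifts for genes of low level. Member ratios that endothelial scaling turns are given with each gene, and between the WT libraries once for all members. With that scaling 73.2% of all genes were higher than in either WT library and 3.69% lower than in either.

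The sequence before the start of 4 members is shown because they form pairs that share a cell type and differ in how they behave below: Gja1 with Gjb6 in astrocytes, Gja5 with Gja4 in arterial endothelium. Each run is the 250 bases before the RefSeq start on GRCm38.p6, 5′ to 3′; for Gja5 that start lies inside the GENCODE gene. Capitals mark matches to the AP-1 motif TGANTCA or the GC box GGGCGG on either strand.
Gja1 upstream, chr10:56377050-56377299, + strand: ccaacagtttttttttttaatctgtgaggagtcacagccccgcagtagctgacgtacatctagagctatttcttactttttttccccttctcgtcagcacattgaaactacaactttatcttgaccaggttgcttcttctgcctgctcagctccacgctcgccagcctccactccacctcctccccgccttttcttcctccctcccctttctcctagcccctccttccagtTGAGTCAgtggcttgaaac
Gjb6 upstream, chr14:57133612-57133861, - strand: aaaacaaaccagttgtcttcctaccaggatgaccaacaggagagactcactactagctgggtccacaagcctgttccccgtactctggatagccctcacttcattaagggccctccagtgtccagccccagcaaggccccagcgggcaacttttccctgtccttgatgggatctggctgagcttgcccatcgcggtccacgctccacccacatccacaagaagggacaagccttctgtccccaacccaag
Gja5 upstream, chr3:97032152-97032401, + strand: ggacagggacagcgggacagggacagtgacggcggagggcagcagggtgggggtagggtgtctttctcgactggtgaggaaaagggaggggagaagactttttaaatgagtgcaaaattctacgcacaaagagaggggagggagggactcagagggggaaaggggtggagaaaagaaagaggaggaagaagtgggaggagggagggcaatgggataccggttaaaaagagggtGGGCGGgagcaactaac
Gja4 upstream, chr4:127314040-127314289, - strand: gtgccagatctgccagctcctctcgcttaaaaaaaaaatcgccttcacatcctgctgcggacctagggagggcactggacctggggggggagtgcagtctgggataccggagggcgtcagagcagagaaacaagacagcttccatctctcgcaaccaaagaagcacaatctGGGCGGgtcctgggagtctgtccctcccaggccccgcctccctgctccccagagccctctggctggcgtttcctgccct
The Gja1 window held 1 AP-1 match, 19 to 13 bases before the start, a motif present in 6.75% of 32851 such windows. Gja5 held 1 GC box, 17 to 12 bases before the start, and Gja4 held 1, 79 to 74 bases before it; this motif was in 32.7% of windows. The Gjb6 window held neither. The TATA box TATAAA, found in 12.4% of windows, was in none of the 7 windows available for the members. Of the members not shown, Gjb2 held 2 GC boxes, and Gjc3 and Panx1 held no match. A match is a run of letters and not evidence of a bound factor.

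Gja1 (ENSMUSG00000050953, GRCm38 chromosome 10, 56377330 to 56402513, plus strand) encodes Cx43, the connexin that was deleted. Its transcript has 2 exons, and exon 2 holds the whole coding sequence. It had 2574 reads in the Cx43-deleted library, against 4276 in the WT C57BL6-BALB/c library and 5138 in WT C57BL6. Per kilobase this was 15.7 (15.1 to 16.3) in the Cx43-deleted library, against 66.1 (64.1 to 68.1) in the WT C57BL6-BALB/c library and 65.3 (63.5 to 67.1) in WT C57BL6. The Cx43-deleted library lay far below the WT libraries, whose intervals overlapped. It was 4.22-fold lower than in the WT C57BL6-BALB/c library (4.02 to 4.43) and 4.17-fold lower than the WT C57BL6 level (3.98 to 4.37). Among all genes measured, 0.169% had a lower ratio to the WT C57BL6-BALB/c library and 0.181% a lower ratio to WT C57BL6.

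Gja1 transcript was still present in the Cx43-deleted library. Reads of the Cx43-deleted library reached all but 6 of the 3071 bases, at 0.838 reads per base, against all but 1 base at 1.39 reads per base in the WT C57BL6-BALB/c library and all bases at 1.67 in WT C57BL6. The tables give reads per transcript and not per exon, and they do not say which bases the deletion removes, so reads from an unrecombined allele and from what is left of a recombined one cannot be told apart. In whole-vessel RNA, fewer cells of a type and less RNA per cell cannot be told apart either.

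Gjb6 (ENSMUSG00000040055, chromosome 14, 57123303 to 57133611) encodes Cx30, the other main astrocyte connexin. It had 6399 reads in the Cx43-deleted library, against 2246 in the WT C57BL6-BALB/c library and 2899 in WT C57BL6. Per kilobase the level was 68.0 (66.3 to 69.6) in Cx43-deleted, against 60.6 (58.1 to 63.2) in the WT C57BL6-BALB/c library and 64.3 (62.0 to 66.7) in WT C57BL6. The 3 values lay close together, with Cx43-deleted the highest. The fold was 1.12 over the WT C57BL6-BALB/c library (1.07 to 1.18) and 1.06 over WT C57BL6 (1.01 to 1.10); the log2 ratio to WT C57BL6 of 0.08 was 0.00 when scaled by library total alone and 0.99 when scaled on endothelial markers.

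The pair can also be compared inside each library, where scaling cancels. Reads per kilobase of Gja1 were 0.230 times those of Gjb6 in the Cx43-deleted library (0.22 to 0.241), against 1.09 times in the WT C57BL6-BALB/c library (1.04 to 1.15) and 1.02 times in WT C57BL6 (0.970 to 1.06). Gjb6 exceeded Gja1 in the Cx43-deleted library, while the pair was near equal in the WT libraries. The 15 astrocyte markers, all detected in every library, summed to a level of 3787 in Cx43-deleted, against 4199 in the WT C57BL6-BALB/c library and 4787 in WT C57BL6. Divided by that sum, Gja1 had log2 ratios of -1.93 to the WT C57BL6-BALB/c library and -1.72 to WT C57BL6, and Gjb6 had ratios of 0.31 and 0.42. Slc1a2, a glutamate transporter, had the highest level of these markers, without correction for length. It was at 946 in Cx43-deleted, against 1241 in the WT C57BL6-BALB/c library and 1198 in WT C57BL6.

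**Figure D1:**
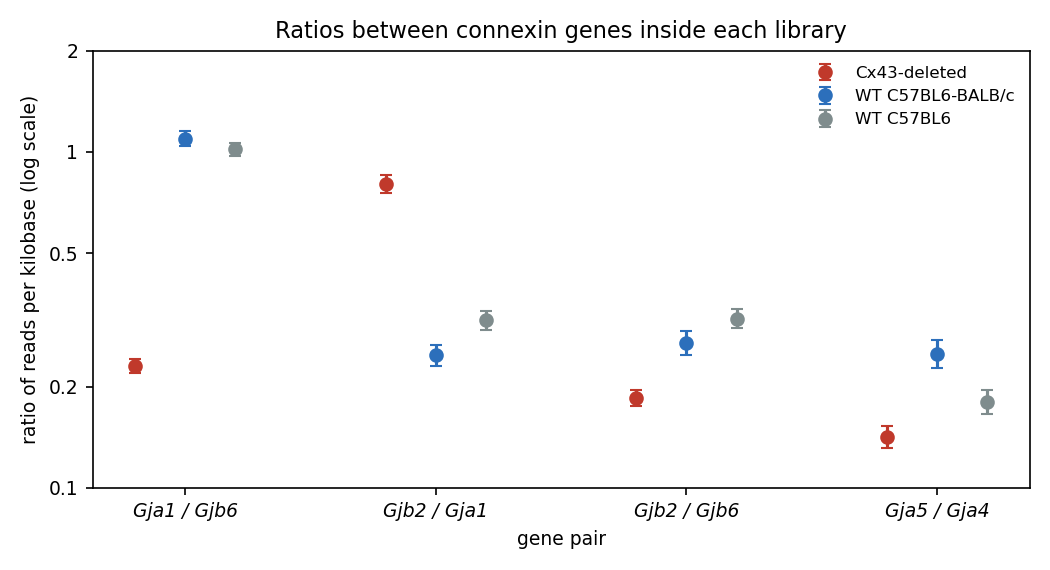
Ratios of reads per kilobase between pairs of connexin genes inside each of the 3 libraries (y axis, log scale; points with 95% counting intervals). The Gja1 to Gjb6 ratio is 0.230 in the Cx43-deleted library, against 1.09 in the WT C57BL6-BALB/c library and 1.02 in WT C57BL6.

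Gjb2 (ENSMUSG00000046352, chromosome 14, 57098600 to 57104702) encodes Cx26, a connexin of the leptomeninges and of some astrocytes, and lies next to Gjb6. It had 1612 reads in the Cx43-deleted library, against 825 in the WT C57BL6-BALB/c library and 1259 in WT C57BL6. Its level per kilobase was 12.6 (12 to 13.2) in Cx43-deleted, against 16.4 (15.3 to 17.5) in the WT C57BL6-BALB/c library and 20.5 (19.4 to 21.7) in WT C57BL6. The Cx43-deleted library was the lowest and the WT libraries also differed, by 0.797 times (0.729 to 0.871) for WT C57BL6-BALB/c over WT C57BL6, a log2 ratio of -0.32 that turns to 0.40 with endothelial scaling. The log2 ratio of Cx43-deleted was -0.37 to the WT C57BL6-BALB/c library and -0.70 to WT C57BL6, the second turning to 0.20 with endothelial scaling. Inside a library the ratio of Gjb2 to Gjb6 was 0.185 (0.175 to 0.196) in Cx43-deleted, against 0.270 (0.249 to 0.293) in the WT C57BL6-BALB/c library and 0.319 (0.299 to 0.341) in WT C57BL6, lowest in the Cx43-deleted library. Relative to Gja1, Gjb2 was at 0.804 (0.755 to 0.856) in Cx43-deleted, against 0.248 (0.230 to 0.267) in the WT C57BL6-BALB/c library and 0.315 (0.296 to 0.335) in WT C57BL6.

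The 12 leptomeningeal fibroblast markers, all detected, summed to 3917 in Cx43-deleted, against 3973 in the WT C57BL6-BALB/c library and 5397 in WT C57BL6. Of these, 8 were lower than in either WT library and 0 were higher than in either, beside 35.6% and 33.5% of all genes. With endothelial scaling 1 was lower and 9 were higher, beside 3.69% and 73.2% of all genes. Divided by that sum, Gjb2 had log2 ratios of -0.36 to the WT C57BL6-BALB/c library and -0.24 to WT C57BL6. Igf2 made up most of the sum, at 2938 in Cx43-deleted, against 2928 in the WT C57BL6-BALB/c library and 3968 in WT C57BL6. These ratios therefore mainly set Gjb2 against Igf2. Under TMM single markers ranged from -0.85 to 0.43 against WT C57BL6-BALB/c, beside -0.37 for Gjb2. Against WT C57BL6 they ranged from -1.19 to 0.07, beside -0.70 for Gjb2. Any part of leptomeningeal cells in the Gjb2 values was not tested.

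Gja5 (ENSMUSG00000057123, chromosome 3, 96904693 to 97077416, plus strand) encodes Cx40, which couples arterial endothelial cells. After Gja1 it was the member furthest below the WT libraries. It had 832 reads in the Cx43-deleted library, against 680 in the WT C57BL6-BALB/c library and 788 in WT C57BL6; the Cx43-deleted library was the deepest. Per kilobase the level was 5.0 (4.67 to 5.35) in Cx43-deleted, against 10.4 (9.62 to 11.2) in the WT C57BL6-BALB/c library and 9.89 (9.21 to 10.6) in WT C57BL6. The WT intervals overlapped each other and not that of Cx43-deleted. It was 2.08-fold lower than in the WT C57BL6-BALB/c library (1.87 to 2.30) and 1.98-fold lower than the WT C57BL6 level (1.79 to 2.18), and 0.873% and 2.98% of all genes had lower ratios. The log2 ratios were -1.06 and -0.98, on either side of the 2-fold mark. With endothelial scaling they were -0.89 and -0.09.

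Of the Gja5 transcripts, 2 were in the tables. The shorter one, of 405 bases, had 66 reads in Cx43-deleted, against 68 in the WT C57BL6-BALB/c library and 72 in WT C57BL6. Per kilobase it was at 3.04 in Cx43-deleted, against 7.97 in the WT C57BL6-BALB/c library and 6.94 in WT C57BL6. It lay on the same side as the longer transcript, but a read can count on more than one transcript, so the values are not independent.

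Gja4 (ENSMUSG00000050234, chromosome 4, 127311421 to 127314039) encodes Cx37, the other arterial endothelial connexin. It had 3179 reads in the Cx43-deleted library, against 1471 in the WT C57BL6-BALB/c library and 2367 in WT C57BL6. Its level per kilobase was 35.2 (34.0 to 36.5) in Cx43-deleted, against 41.4 (39.3 to 43.6) in the WT C57BL6-BALB/c library and 54.8 (52.6 to 57.1) in WT C57BL6. Cx43-deleted was the lowest, and the gap between the WT libraries was wider than its gap to WT C57BL6-BALB/c. The log2 ratio was -0.23 to WT C57BL6-BALB/c, -0.63 to WT C57BL6 and -0.40 between the WT libraries, the last 2 turning to 0.27 and 0.33 with endothelial scaling. Inside a library the ratio of Gja5 to Gja4 was 0.142 (0.131 to 0.153) in Cx43-deleted, against 0.251 (0.228 to 0.275) in the WT C57BL6-BALB/c library and 0.180 (0.166 to 0.196) in WT C57BL6. It was lowest in Cx43-deleted, and the WT libraries differed as well.

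Under TMM arterial and smooth muscle markers were low in the Cx43-deleted library as Gja5 was. Pericyte markers were low against WT C57BL6 and not against WT C57BL6-BALB/c. All 10 arterial endothelial markers lay below both WT libraries, where 35.6% of all genes did; with endothelial scaling 4 of 10 did. They summed to 720.4 in Cx43-deleted, against 1010.4 in the WT C57BL6-BALB/c library and 1302 in WT C57BL6, with medians of -0.32 and -1.03. Of 11 smooth muscle markers, 10 lay below both (0 with endothelial scaling), and they summed to 3165 in Cx43-deleted, against 5182 in the WT C57BL6-BALB/c library and 3866 in WT C57BL6. Of 12 endothelial markers of all vessel types, 10 lay below both (6 when scaled on their own sum), and they summed to 5117 in Cx43-deleted, against 5784 in the WT C57BL6-BALB/c library and 9629.9 in WT C57BL6. No marker of these lists was at 0 in any library. With endothelial scaling the arterial medians were -0.14 and -0.12, and the smooth muscle medians -0.68 to WT C57BL6-BALB/c and 0.48 to WT C57BL6. Of 10 pericyte markers, 4 were lower and 6 higher than WT C57BL6-BALB/c, with a median of 0.03, and 4 lay below both. Against WT C57BL6 all 10 were lower, where 51.6% of all genes were, with a median of -0.55, beside -0.43 for smooth muscle. With endothelial scaling 1 pericyte marker lay below both and 8 above both, beside 3.69% and 73.2% of all genes. Under TMM 10 of 15 astrocyte, 8 of 12 leptomeningeal and 8 of 12 oligodendrocyte markers also lay below both (0, 1 and 1 with endothelial scaling).

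Divided by the arterial marker sum, Gja5 had log2 ratios of -0.59 to the WT C57BL6-BALB/c library and -0.15 to WT C57BL6. Gja4 had ratios of 0.25 and 0.22 on the same base. Divided by the smooth muscle sum, Gja5 was at -0.37 and -0.71. The part of arterial or smooth muscle content in the Gja5 values was not tested.

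**Figure D2:**
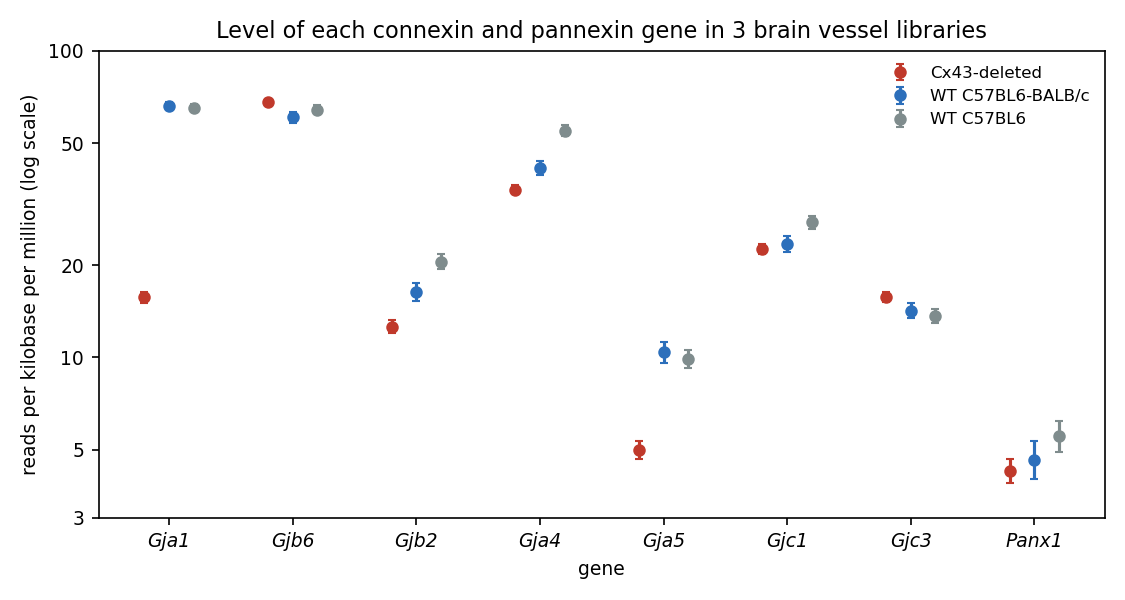
Level of the 8 measured genes in each library as RPKM (y axis, log scale; points with 95% Poisson intervals for counting error). Gja1 and Gja5 are the genes whose Cx43-deleted point lies furthest under the WT points, at 15.7 and 5.0.

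Gjc1 (ENSMUSG00000034520, chromosome 11, 102799579 to 102819700) encodes Cx45, a connexin of smooth muscle cells and pericytes. It had 2788 reads in the Cx43-deleted library, against 1144 in the WT C57BL6-BALB/c library and 1638 in WT C57BL6. Per kilobase the level was 22.5 (21.7 to 23.4) in Cx43-deleted, against 23.5 (22.1 to 24.9) in the WT C57BL6-BALB/c library and 27.6 (26.3 to 29.0) in WT C57BL6. The libraries of mixed background overlapped and WT C57BL6 was higher. The log2 ratios were -0.04 to the WT C57BL6-BALB/c library and -0.26 to WT C57BL6, turning to 0.13 and 0.64 with endothelial scaling. The 10 pericyte markers summed to 3226 in Cx43-deleted, against 3253 in the WT C57BL6-BALB/c library and 5174 in WT C57BL6, the same order. Relative to them Gjc1 was at -0.03 and 0.42, and relative to the smooth muscle sum at 0.67 and 0.02.

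All 5 annotated Gjc1 transcripts were in the tables. A retained-intron form had 1218 reads in Cx43-deleted, against 434 in the WT C57BL6-BALB/c library and 565 in WT C57BL6. Per kilobase it was at 6.67 in Cx43-deleted, against 6.04 in the WT C57BL6-BALB/c library and 6.46 in WT C57BL6, under the main coding form in every library. These forms share exons, so their reads overlap.

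Gjc3 (ENSMUSG00000056966, chromosome 5, 137953461 to 137963098) encodes Cx29, a connexin of myelinating cells. It had 3377 reads in the Cx43-deleted library, against 1200 in the WT C57BL6-BALB/c library and 1405 in WT C57BL6. Its level per kilobase was 15.8 (15.2 to 16.3) in Cx43-deleted, against 14.2 (13.4 to 15.1) in the WT C57BL6-BALB/c library and 13.7 (13 to 14.4) in WT C57BL6. It was the other member, with Gjb6, that lay above both WT libraries, with folds of 1.11 (1.04 to 1.18) to WT C57BL6-BALB/c and 1.15 (1.08 to 1.23) to WT C57BL6, and it did so under each of the 4 scalings. Of 50-base stretches of its transcript, 3.74% also occur in transcripts of other genes. Reads on those stretches are uncertain, and the share of reads that fall there is not known.

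Most oligodendrocyte markers lay on the other side under TMM and on the same side with endothelial scaling. Of 12, 8 were lower than in either WT library and 1 was higher than in either, beside 35.6% and 33.5% of all genes. With endothelial scaling the counts were 1 and 8, beside 3.69% and 73.2% of all genes. Their summed level was 13843 in Cx43-deleted, against 14282 in the WT C57BL6-BALB/c library and 17542 in WT C57BL6. Mbp, the myelin basic protein, was at 11609 in Cx43-deleted, against 12093 in the WT C57BL6-BALB/c library and 15249.9 in WT C57BL6. Relative to the marker sum Gjc3 was higher by 0.19 and 0.54 on the log2 scale.

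Panx1 (ENSMUSG00000031934, chromosome 9, 15002128 to 15045478) encodes pannexin 1, a channel that releases ATP. It had 469 reads in the Cx43-deleted library, against 201 in the WT C57BL6-BALB/c library and 291 in WT C57BL6. Per kilobase the level was 4.26 (3.89 to 4.67) in Cx43-deleted, against 4.64 (4.02 to 5.33) in the WT C57BL6-BALB/c library and 5.53 (4.91 to 6.20) in WT C57BL6. The intervals of Cx43-deleted and WT C57BL6-BALB/c overlapped, and the fold to WT C57BL6-BALB/c was 0.918 (0.777 to 1.09). The log2 ratios of -0.12 and -0.36 turned to 0.05 and 0.51 with endothelial scaling. Only 1 of the 4 annotated transcripts was matched, one annotated as a target of nonsense-mediated decay, so reads that fall on exons of the others alone are not in these values. In the annotation it has 1854 bases, while the deposited length is 2055, so the decay label may not describe the form that was counted.

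**Figure D3:**
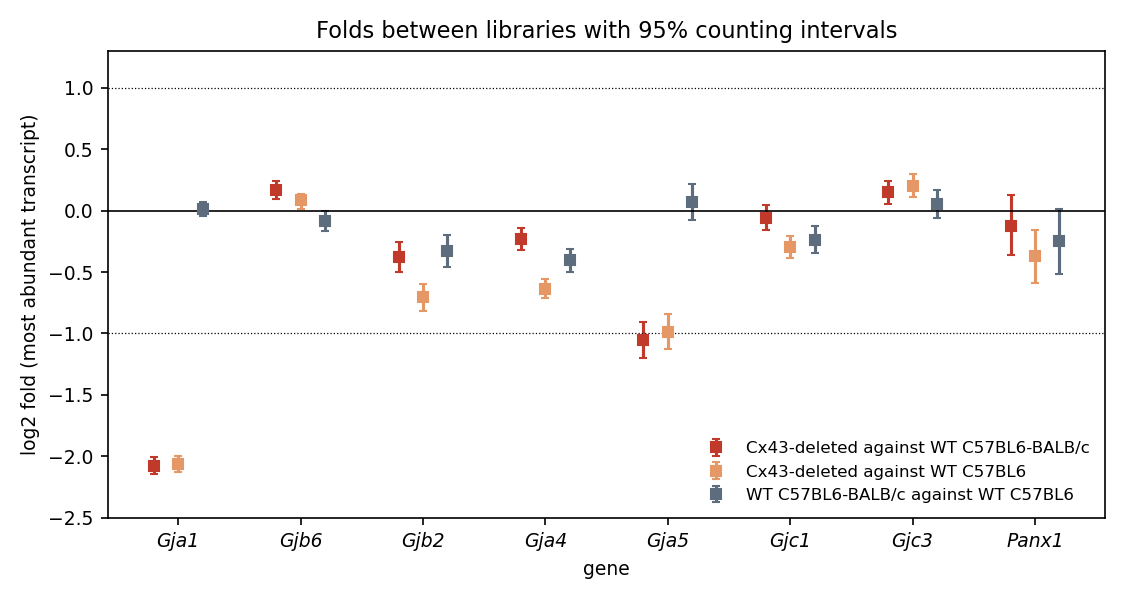
Log2 folds of the 8 measured genes in each of the 3 comparisons (y axis; squares with 95% counting intervals; dotted lines at 2-fold). Gja1 lies near -2 and Gja5 near -1 in both comparisons of the Cx43-deleted library, and both lie near 0 between the WT libraries (0.75 and 0.80 with endothelial scaling); with that scaling Gja4, Gjb2, Gjc1 and Panx1 would lie above 0 against WT C57BL6.

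Ranked by level per kilobase, the Cx43-deleted library ran Gjb6, Gja4, Gjc1, Gjc3, Gja1, Gjb2, Gja5, Panx1, with overlap between Gjc3 and Gja1, while Gja5 and Panx1 touched. WT C57BL6-BALB/c ran Gja1, Gjb6, Gja4, Gjc1, Gjb2, Gjc3, Gja5, Panx1, with no overlap between neighbours. WT C57BL6 had the same order as WT C57BL6-BALB/c, with overlap between Gja1 and Gjb6. Gja1 led both WT libraries and stood between Gjc3 and Gjb2 in Cx43-deleted. Panx1 was last in all 3 libraries.

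As a share of the reads on all 20 connexin genes of the family, Gja1 took 11.8% (Clopper-Pearson, 11.4 to 12.3) in Cx43-deleted, against 34.9% (34.1 to 35.8) in the WT C57BL6-BALB/c library and 31.6% (30.9 to 32.3) in WT C57BL6. Gjb6 took 29.4% (28.8 to 30.0) in Cx43-deleted, against 18.3% (17.7 to 19.0) in the WT C57BL6-BALB/c library and 17.8% (17.2 to 18.4) in WT C57BL6. Shares sum to a whole, so a drop of the leading gene lifts the rest. Gja5 was the member besides Gja1 whose share was lower than in either WT library, at 3.82% (3.57 to 4.09) in Cx43-deleted, against 5.55% (5.15 to 5.97) in the WT C57BL6-BALB/c library and 4.84% (4.52 to 5.18) in WT C57BL6. The summed level per kilobase of the 19 connexins other than Gja1 was 169 in Cx43-deleted, against 176 in the WT C57BL6-BALB/c library and 206 in WT C57BL6. With Gja1 it was 184, against 242 and 271 in the same WT libraries.

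**Figure D4:**
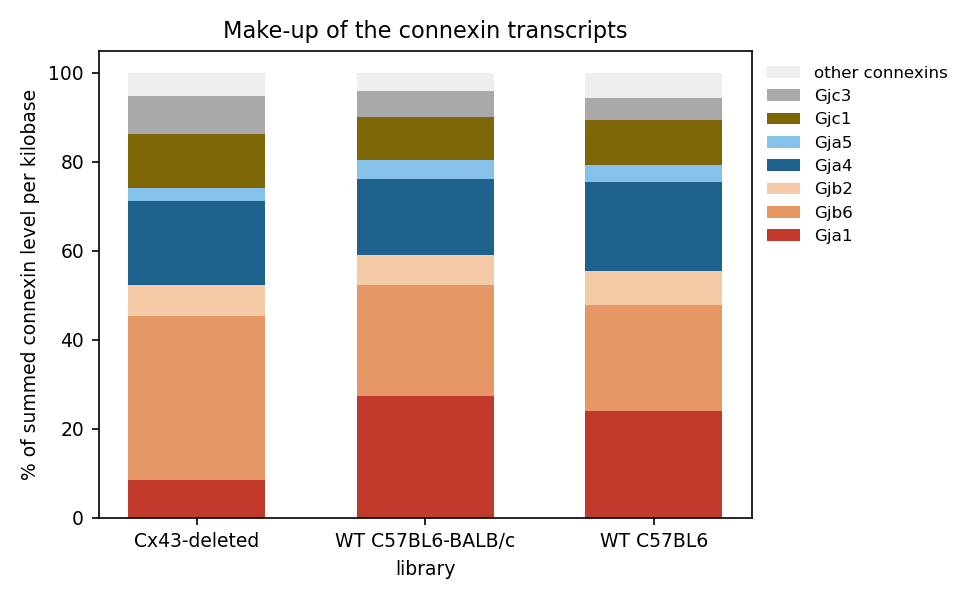
Share of each connexin gene in the summed connexin level per kilobase of a library (stacked bars, percent; 1 bar per library). Gja1 makes up 8.50% in the Cx43-deleted library, against 27.3% in the WT C57BL6-BALB/c library and 24.1% in WT C57BL6.

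Of the 8 members, 6 were lower and 2 higher than in WT C57BL6-BALB/c, where 50.5% of all genes were lower and 49.5% higher. By 2-fold or more, 2 were lower, Gja1 and Gja5, and 0 higher, where 1.02% of genes were lower, 1.05% higher and 2.07% either. Against WT C57BL6, 6 were lower and 2 higher, where 51.6% of genes were lower and 48.4% higher. By 2-fold or more, 1 was lower, Gja1, and 0 higher, where 2.76% of genes were lower, 1.6% higher and 4.36% either. Gja1 was 2-fold or more lower than in both WT libraries, as were 0.379% of genes, and 0 members were that much higher, as were 0.428%; 0.807% of genes were outside either way. By any amount, 6 members were under both, where 35.6% of genes were, and 2 over both, where 33.5% were. With endothelial scaling these counts were 2 and 4, beside 3.69% and 73.2% of genes. The members' median log2 ratio was -0.17 to the WT C57BL6-BALB/c library and -0.49 to WT C57BL6, beside 0.00 and -0.02 over all genes, and -0.12 and -0.36 without Gja1. Both comparisons share the Cx43-deleted library and are not independent.

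Between the WT libraries, WT C57BL6-BALB/c was higher than WT C57BL6 for 3 members and lower for 5, where 48.9% of genes were higher and 51.1% lower. With endothelial scaling all 8 were higher, at 0.33 for Gja4, 0.40 for Gjb2, 0.46 for Panx1, 0.51 for Gjc1, 0.65 for Gjb6, 0.75 for Gja1, 0.78 for Gjc3 and 0.80 for Gja5. That scaling adds about 0.74 to the ratios of all genes here, whose median was -0.01 under TMM. The share of all genes higher with it was not counted. By 2-fold or more, 0 of 8 members were apart, where 1.23% of genes were higher, 1.93% lower and 3.16% either. Under TMM the widest gap was that of Gja4, at -0.40, then Gjb2 at -0.32, the smallest gaps with endothelial scaling. Gja1 was at 0.02 and Gja5 at 0.08 under TMM, where the WT libraries lay together for these genes.

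**Figure D5:**
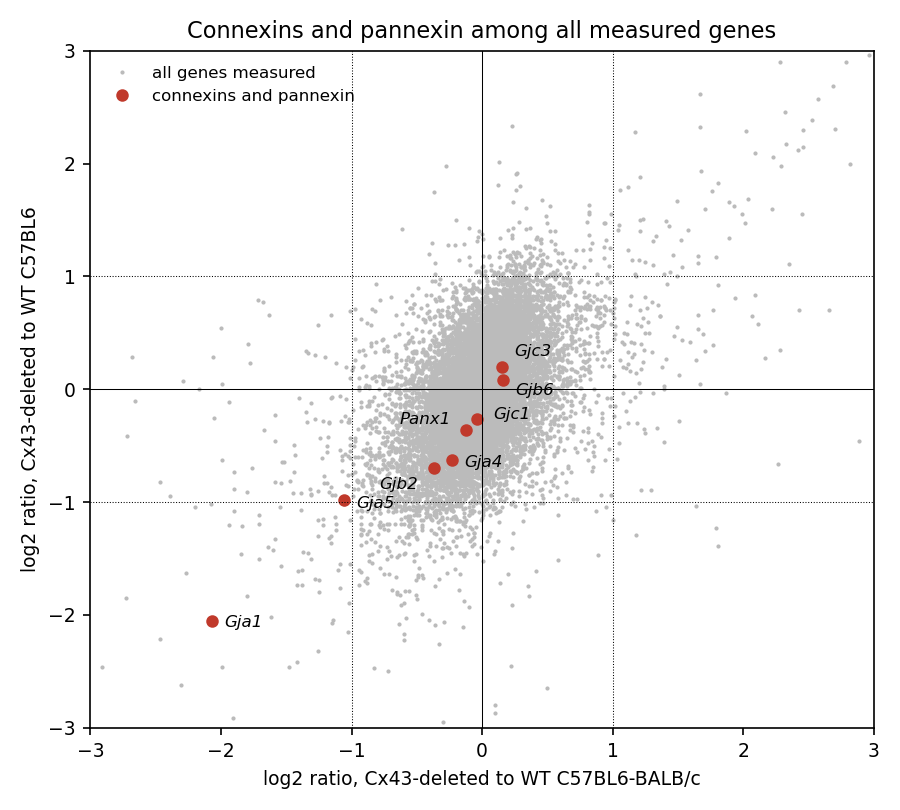
Log2 ratios of the Cx43-deleted library to the WT C57BL6-BALB/c library (x axis) and to WT C57BL6 (y axis) for 16604 genes, with the 8 members in red, dotted lines at 2-fold and 28 genes beyond the axes. The axes share the Cx43-deleted library; Gja1 sits at -2.07 and -2.05, away from the other members.

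Other family members were taken from a list of the family's genes. Gjb1 (Cx32) of oligodendrocytes had 335 reads in Cx43-deleted, against 129 and 179 in the WT C57BL6-BALB/c library and WT C57BL6, and its interval included 1 in each comparison. Gjd2 (Cx36) is the connexin of electrical synapses. Its level was 3.89 in Cx43-deleted, against 4.18 in the WT C57BL6-BALB/c library and 5.46 in WT C57BL6. The folds were 0.93 (0.722 to 1.21) to WT C57BL6-BALB/c and 0.711 (0.571 to 0.888) to WT C57BL6. With endothelial scaling the Gjd2 log2 ratios of -0.09 and -0.44 turned to 0.07 and 0.38. Those of Gjb1 were 0.21 and 0.74 with that scaling.

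Gjd3 had 22 reads in Cx43-deleted, against 4 in the WT C57BL6-BALB/c library and 5 in WT C57BL6, a fold of 2.16 (0.735 to 8.64) over WT C57BL6-BALB/c. Gja6 had 17 reads in Cx43-deleted, against 7 and 6 in the WT C57BL6-BALB/c library and WT C57BL6. Gja3, Gjd4, Gje1 and Panx3 had between 0 and 4 reads in any library. These genes were at the edge of detection, and 3 reads amount to a level of 0.0560 in Cx43-deleted, 0.142 in the WT C57BL6-BALB/c library and 0.117 in WT C57BL6. A further 4 family genes had at most 2 reads in a library.

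Proteins that bind or modify connexins were measured in 19 genes of a list. Of these, 15 were under and 4 over WT C57BL6-BALB/c, and 13 were lower and 6 higher than in WT C57BL6, 0 of them by 2-fold against both. Of all genes, 50.5% were under WT C57BL6-BALB/c and 51.6% under WT C57BL6. The medians were -0.15 and -0.13. With endothelial scaling they were 0.02 and 0.79, with 9 and 0 genes lower, beside 4253 and 813 of all 16604 genes. Cav1, the caveolae protein, was at a level of 511 in Cx43-deleted, against 651 in the WT C57BL6-BALB/c library and 879 in WT C57BL6. Dbn1, drebrin, which ties Cx43 to actin, was at 2094 in Cx43-deleted, against 1771 in the WT C57BL6-BALB/c library and 1009 in WT C57BL6. Mapk3, a kinase of the ERK pathway, was at -0.22 and -0.68, and Ccn3, a secreted protein that binds Cx43, at -0.32 and -0.21. With endothelial scaling the ratios to WT C57BL6 of Cav1, Mapk3 and Ccn3 were 0.13, 0.23 and 0.69.

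Of 25 genes for ATP release and purinergic signalling, 23 passed the filter, 16 were under and 7 over WT C57BL6-BALB/c, and 20 were lower and 3 higher than in WT C57BL6, beside the same 50.5% and 51.6% of all genes lower. The medians were -0.11 and -0.29. With endothelial scaling they were 0.07 and 0.57, with 9 and 2 genes lower, beside 4253 and 813 of all 16604 genes. P2ry2, a receptor for ATP and UTP, was the 1 gene of the list 2-fold or more below both, where 0.379% of all genes were, with 158 reads in Cx43-deleted, against 137 in the WT C57BL6-BALB/c library and 314 in WT C57BL6, and log2 ratios of -1.02 and -1.89. With endothelial scaling these were -0.88 and -1.05, no longer 2-fold against WT C57BL6-BALB/c. Entpd1, the ectonucleotidase CD39, was at a level of 179 in Cx43-deleted, against 294 in the WT C57BL6-BALB/c library and 409 in WT C57BL6. Lrrc8d, a subunit of volume-regulated anion channels, was at -0.39 and -0.57. P2ry14, a receptor for UDP-sugars, was at -0.34 and -0.88, and Adora2a, an adenosine receptor, at -0.31 and -0.60. Endothelial scaling turned the ratios to WT C57BL6 of Lrrc8d, P2ry14 and Adora2a to 0.34, 0.02 and 0.30. Under TMM 2 genes of the list lay above both WT libraries, where 33.5% of all genes did. With endothelial scaling 14 did, where 73.2% of all genes did. The 2 under TMM were named after their values were seen. They were Nt5e, the ectonucleotidase CD73, at 0.43 and 0.25, and Slc29a1, a nucleoside transporter, at 0.22 and 0.10.

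Genes with the pattern most like a member were taken as the 3 nearest in the 2 log2 ratios of the Cx43-deleted library, among 12037 coding genes outside the family. For Gja1 these were Hjurp at -1.80 and -1.83, Hspa8 at -1.99 and -2.46, and Egr2 at -2.27 and -1.63, at distances of 0.34 to 0.46. For Gja5 they were Gem at -1.07 and -0.96, Srl at -1.08 and -0.96, and Fbln5 at -1.06 and -1.02, at distances of 0.021 to 0.045. Fbln5 is also in the arterial marker list, and Hspa8 has many processed pseudogenes, so its counts are uncertain. Likeness over 3 libraries is a weak measure.

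Markers of the labelled tissue were abundant in every library. Pecam1, an endothelial adhesion molecule, was at a level of 1147 in Cx43-deleted, against 1387 in the WT C57BL6-BALB/c library and 2245 in WT C57BL6. Of the pericyte markers, Vtn had the highest mean level. It was at 948 in Cx43-deleted, against 1073 in the WT C57BL6-BALB/c library and 1845 in WT C57BL6. Rgs5, the next, was at 1124 in Cx43-deleted, against 961 in the WT C57BL6-BALB/c library and 1557 in WT C57BL6. RNA of other brain cells was present too. The 10 neuron markers summed to 3498 in Cx43-deleted, against 3776 in the WT C57BL6-BALB/c library and 3075 in WT C57BL6. The 8 choroid plexus markers summed to 4619 in Cx43-deleted, against 3495 in the WT C57BL6-BALB/c library and 8696 in WT C57BL6. The 9 microglia and macrophage markers summed to 343 in Cx43-deleted, against 315 in the WT C57BL6-BALB/c library and 457 in WT C57BL6. No marker of any list was at 0 in a library.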

How the data were processed

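RNA from brain vessels was sequenced from TruSeq RNA v2 polyA libraries, which do not keep the strand, 1 library per group; the labels do not say if a library pools animals. The submitters' processing notes list CASAVA 1.8.2, Bowtie and mm10, with counting program and annotation release not given in the sources used here. Deposited by the authors were a raw read count per Ensembl transcript, per the file headers, and each count as a fraction of the library total, which gave the totals. Counts sum to 2.55 times the total in Cx43-deleted, 2.53 times in the WT C57BL6-BALB/c library and 2.45 times in WT C57BL6, so a read can count on several transcripts. The tables also give transcript length and bases with no read.

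Coordinates in the tables reach 197054592 on chromosome 1, beyond the last GRCm38 gene end at 195323493, so only identifiers were used. Of 82813 transcripts, 69379 (83.8%) matched GENCODE M21, and 217 on another chromosome were left out. TMM factors (0.974, 0.995 and 1.03; edgeR 4.0.16, R 4.3.3) were computed on the kept genes. Intervals are exact binomial for folds and shares and Poisson for reads (scipy 1.17.1). They cover counting error only, and not the spread between animals or libraries. Reads without molecular identifiers are not independent molecules, so the intervals may be too narrow even for counting error. The steps were tested on simulated counts. No p-value is given.

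None of the members' exons overlap exons of another gene. No 50-base stretch of Gja1, Gja4, Gja5, Gjb2, Gjb6 or Panx1 occurs in another gene's transcripts, and 0.0883% of those of Gjc1 do. The longest run shared by 2 members, Gjc1 and Gjc3, is 28 bases. These checks used GENCODE M21 transcripts. Their length differs from the deposited length for Panx1 (1854 against 2055 bases), Gjb6 (2105 against 1759) and Gjb2 (2406 against 2392). Upstream sequences are from RefSeq (GRCm38.p6), with 7 of 9 members matched. The members and lists were chosen with earlier results of these data known. Named were all members, family members with 3 or more reads in a library, list members 2-fold outside both WT libraries or else up to 4 furthest out, the 3 genes most like Gja1 and Gja5 with a level of 5 or more in every library, and up to 3 markers per list. Some family members that this rule names are not reported here. Alternatives were other scalings (library total, DESeq2 1.42.0 size factors, endothelial markers), the most abundant transcript, pseudocounts of 0.1 and 1, other filters and a 1.5-fold threshold.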

Additional observations from a re-analysis of the deposited data

How the results depend on the processing

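Gja1 stayed 2-fold or more below both WT libraries under every alternative run: its log2 ratio ranged from -2.10 to -1.89 against WT C57BL6-BALB/c and from -2.13 to -1.14 against WT C57BL6. The ends came from library total alone (-2.13 against WT C57BL6) and from scaling on endothelial markers (-1.89 and -1.14). Of 216 log2 ratios of members under alternatives, 26 left their counting interval, 23 of them under endothelial scaling and 3 under library total alone, and 0 ratios of 2-fold or more changed sign.

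The counts of members 2-fold apart also moved. Against WT C57BL6 the count was 1, and 2 with library total alone (Gja1 and Gja5), 2 with endothelial scaling (Gja1, and Gjc3 at 1.10) and 4 at a 1.5-fold threshold (with Gjb2 and Gja4). Against WT C57BL6-BALB/c it was 2, and 1 with endothelial scaling. Members 2-fold outside both WT libraries numbered 1, and 2 with library total alone or at 1.5-fold. With endothelial scaling the number was 1, where 18 of 16604 genes were 2-fold or more below both and 201 above both. Shares of all genes were not counted at 1.5-fold or with library total alone. Nor were they counted for either single comparison at 2-fold with endothelial scaling, so those member counts have no background. Which scaling is nearer to the cells was not tested. No paired analysis was possible because each group has 1 library, and leaving out a replicate was not possible for the same reason. Without replicates the spread between animals is unknown, so counting intervals that do not overlap do not show a difference between genotypes. The gene lists were set on endothelial markers as well, a choice made after seeing the data.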
